A study of Homo sapiens with 3 samples.

Results

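Cholesterol synthesis was described here through 8 genes of HCT116 cells, an established human colorectal cancer line, chosen by symbol from the 15625 genes of the deposited expression table. The 8 genes were HMGCS1, IDI1, FDFT1, SQLE, CYP51A1, SC5D and DHCR7, which encode enzymes of the pathway, and INSIG1, which encodes its sterol-sensing brake. The working name of the group also covers uptake, but none of the 8 encodes an uptake receptor, so uptake genes were taken from a separate list. The study collected poly(A)-selected RNA-seq from 3 libraries: 1 with a control shRNA (sh_control) and 2 with shRNA against circRAPGEF5 (sh_circRAPGEF5 libraries 1 and 2), a circular transcript of the RAPGEF5 locus. Every library carries the same line and the genotype label MT, and all received the shRNA system from Sigma-Aldrich with harvest after 36 or 48 h. Harvest times are not assigned to libraries in the labels, which also leave unsaid whether the knockdown libraries are separate hairpins or cultures. The spread between them may therefore be technical, and time and shRNA cannot be told apart.

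Cells make cholesterol from acetyl-CoA through mevalonate, isoprenoid pyrophosphates, squalene and lanosterol, mostly at the endoplasmic reticulum. When sterols run low, SCAP escorts the transcription factor SREBP-2 to the Golgi, where it is cut, and the released fragment switches on most genes of the pathway. INSIG proteins hold SCAP back when sterols are plentiful, and INSIG1 is itself an SREBP target. Rapidly dividing tumour cells draw on the pathway for membranes and for the lipid anchors of RAS proteins.

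Depth was even. The smallest whole reads that give the listed FPKM ratios summed to 14630130 in the control, 14830857 in library 1 and 15756539 in library 2. The linear host gene RAPGEF5 was at 1.98 FPKM in the control, 1.33 in library 1 and 2.73 in library 2, which does not measure the circular RNA and so does not check the knockdown. Of 10 colorectal epithelial markers, 9 were in the table and 6 had a mean of at least 1 FPKM; EPCAM was at 170.0 to 191 FPKM, while VIL1 was at or near 0. The summed epithelial markers were at 2286 FPKM in the control, 2552 in library 1 and 3884 in library 2, mostly from KRT8, KRT18 and KRT19. These keratins were above the control in both knockdown libraries. CDH1 was below it in both, at 33.1 FPKM against 20.3 and 26.7, and EPCAM and CDX2 lay on opposite sides. In library 2, 6 of 6 tested markers were higher than in library 1, where 51.1% of all genes with a mean of at least 1 FPKM were. The fibroblast markers summed to 4.71 to 14.0 FPKM, the leukocyte markers to 4.92 to 10.4 and the endothelial markers to 11.2 to 15.6, each carried by 1 or a few genes, with PTPRC listed at 0 in 2 libraries. Replication-dependent histones, listed as a possible sign of RNA quality, summed to 67.6 FPKM in the control against 125 in each knockdown library. Of 6 tested members 5 were above the control in both, where 31.7% of all genes with a mean of at least 1 FPKM were. The equal sums differ by gene: H2AC6 was at 40.8 FPKM in library 1 and 13.3 in library 2, and H2BC12 at 31.3 and 76.1. The part of these values in the results below was not tested.

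All 8 genes were expressed in every library and passed the filter of a mean of at least 1 FPKM, as did 11216 genes in all. No sterol gene moved far enough to be called. limma called 0 of the 8 genes at an adjusted p threshold of 0.05, against 0.0178% of all tested genes, and CYP51A1 alone had an unadjusted p under 0.05, where 7.07% of tested genes did. FPKM is scaled to gene length and library depth, so levels can be ordered between genes. In the control DHCR7 was highest, followed by SQLE, FDFT1, INSIG1, CYP51A1, HMGCS1, SC5D and IDI1. In the knockdown libraries the means ran from DHCR7, at 40.7 ± 12.5 FPKM (SD, n = 2), through FDFT1 (34.9 ± 15.5), CYP51A1 (32.0 ± 6.27), SQLE (21.7 ± 5.35), HMGCS1 (10.5 ± 6.005), IDI1 (10.2 ± 3.44) and SC5D (8.49 ± 2.15) to INSIG1 (7.35 ± 2.22). Only the steps from CYP51A1 to SQLE and from SQLE to HMGCS1 were larger than the SD of either neighbour. CYP51A1 moved from rank 5 in the control to ranks 2 and 3, and INSIG1 from rank 4 to ranks 8 and 7.

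**Figure D1:**
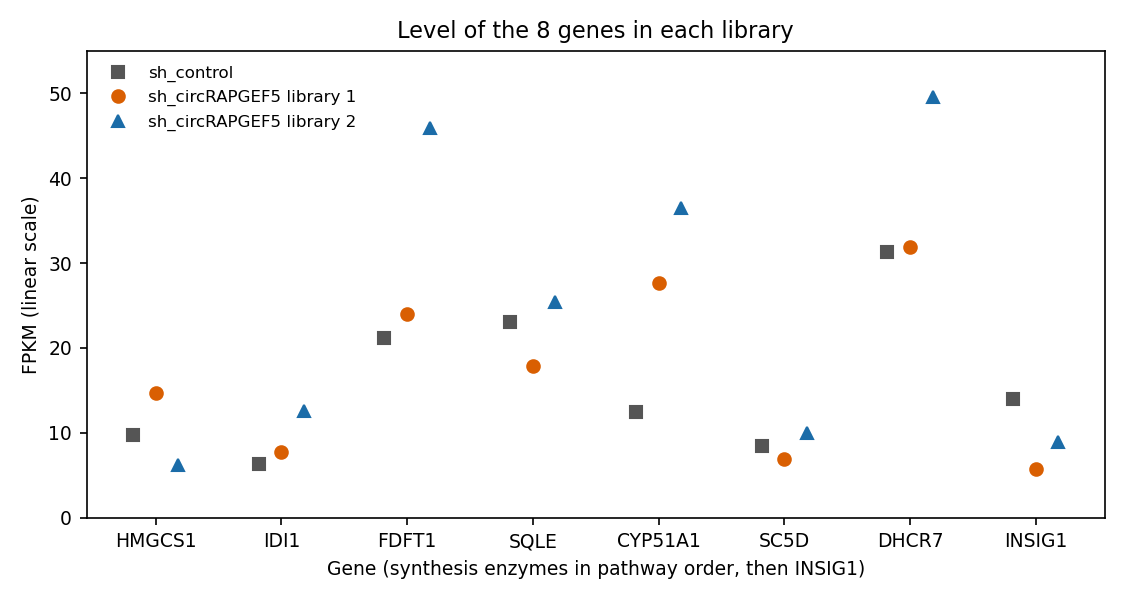
FPKM (linear axis) of each of the 8 genes in the 3 libraries, enzymes in pathway order and INSIG1 last; each point is 1 library, so there are no error bars. CYP51A1 lies at 12.5 FPKM in sh_control, 27.6 in library 1 and 36.5 in library 2, INSIG1 lies below the control in both, and HMGCS1 lies on both sides of it.

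The largest difference among the 8 was in CYP51A1, lanosterol 14-alpha-demethylase, which carries out the first step after lanosterol (Entrez 1595, GRCh38 chromosome 7, 92112151 to 92134803, minus strand). Its level was 12.5 FPKM in the control, 27.6 in library 1 and 36.5 in library 2. Both knockdown libraries thus lay well above the control, by 2.21-fold (95% interval 1.94 to 2.52) and 2.91-fold (2.57 to 3.30). These are exact Clopper-Pearson intervals on the smallest whole reads; they compare pairs of libraries and cover counting error only. Across libraries the log2 fold change of FPKM + 1 was 1.28 ± 0.41 (SE), with an unadjusted limma p of 0.00889 and an adjusted p of 0.553, so the gene was not called. A gain of at least 2-fold in both libraries was seen in 1.21% of tested genes. In GENCODE 29 a same-strand protein-coding model, AC000120.2, shares 79.4% of the exonic bases of CYP51A1, and 3 pseudogenes carry its name. How the authors' counting split such reads is not given in the sources used here, so the level is uncertain.

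INSIG1, which retains the SCAP-SREBP complex in the endoplasmic reticulum, lay on the other side (Entrez 3638, chromosome 7, 155297776 to 155310235, plus strand). It was at 13.9 FPKM in the control, 5.78 in library 1 and 8.92 in library 2. Both knockdown libraries were below the control, at 0.415 (95% interval 0.357 to 0.481) and 0.640 (0.563 to 0.726) of its level. The log2 fold change was -0.87 ± 0.44 (SE), with a limma adjusted p of 0.749. A loss of at least 2-fold in both libraries was seen in 1.7% of tested genes, and INSIG1 was not among them. INSIG1 was the 1 gene of the 8 that was lower in both knockdown libraries, where 37.6% of tested genes were. Its paralog INSIG2 had 3.99 FPKM in the control, 5.92 in library 1 and 5.72 in library 2, a log2 fold change of 0.45 (limma adjusted p 0.881).

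CYP51A1 and INSIG1 had the largest mean log2 fold changes of the 8 in either direction, although in library 2 FDFT1, IDI1 and DHCR7 lay farther from the control than INSIG1, so the 250 bases before each RefSeq start are shown. They are printed 5′ to 3′ on the gene's strand, with matches in capitals to GGGCGG, the core of an Sp1 site, and to CCAAT, bound by NF-Y, a partner of SREBP; both strands were searched. With them stands the stretch before SREBF2, the gene of SREBP-2, that holds a match to the sterol regulatory element TCACNCCAC, in capitals. The windows of SREBF1, SCD, FADS2, LSS, MSMO1 and NUS1 were searched as well and held no match to TCACNCCAC, so SREBF2 was the exception among these genes. The RefSeq starts differ from the GENCODE gene coordinates given above. The CYP51A1 window lies wholly within that gene span, which reaches 92134803 on the minus strand. The INSIG1 window runs past the GENCODE start, 155297776, into the gene. The printed bases are therefore not all upstream of the annotated genes.
CYP51A1, GRCh38.p14 chr7:92134478-92134727, minus strand: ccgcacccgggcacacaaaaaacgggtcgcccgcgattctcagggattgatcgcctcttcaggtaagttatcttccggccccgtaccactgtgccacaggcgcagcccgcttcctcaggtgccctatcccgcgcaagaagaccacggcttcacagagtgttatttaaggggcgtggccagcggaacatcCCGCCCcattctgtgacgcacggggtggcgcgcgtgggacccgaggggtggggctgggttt
INSIG1, GRCh38.p14 chr7:155297628-155297877, plus strand: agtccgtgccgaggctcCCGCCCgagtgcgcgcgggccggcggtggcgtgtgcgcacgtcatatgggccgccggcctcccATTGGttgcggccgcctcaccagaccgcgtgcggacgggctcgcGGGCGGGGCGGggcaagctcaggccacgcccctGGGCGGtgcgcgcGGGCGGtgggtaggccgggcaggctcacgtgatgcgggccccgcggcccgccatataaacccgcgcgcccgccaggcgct
SREBF2, GRCh38.p14 chr22:41832962-41832990, plus strand: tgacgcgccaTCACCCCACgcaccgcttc

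The CYP51A1 window held 1 match to GGGCGG and none to CCAAT, while the INSIG1 window held 5 matches to GGGCGG, 2 of which share a base, and 1 to CCAAT. RefSeq windows were found for 6 of the 8 genes, 11 windows in all, some of them overlapping. Some windows of HMGCS1, IDI1, DHCR7 and SC5D also lay wholly or partly within the GENCODE gene spans. GGGCGG was present in 10 of these 11 windows and CCAAT in 7, against 42.6% and 32% of the 35116 windows of the same length. TCACNCCAC was in 0 of the 11 windows and in 0.883% of all windows. A match describes the letters only and shows no binding, and the lack of one says nothing of a factor.

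HMGCS1 makes HMG-CoA early in the pathway (Entrez 3157, chromosome 5, 43289395 to 43313512). It was at 9.77 FPKM in the control, 14.7 in library 1 and 6.25 in library 2. Library 1 was 1.51-fold (1.39 to 1.63) above the control, while library 2 was at 0.640 (0.581 to 0.705) of it. The mean log2 fold change was -0.011 ± 0.50 (SE; limma adjusted p 0.999), and its sign turned with a pseudocount of 5, median-ratio rescaling or quantile normalization.

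IDI1 isomerizes isopentenyl pyrophosphate, the isoprenoid building block (Entrez 3422, chromosome 10, 1039152 to 1049170). Its level was 6.32 FPKM in the control, 7.73 in library 1 and 12.6 in library 2. Both knockdown libraries were above the control, library 2 by 1.99-fold (1.81 to 2.19). The log2 fold change was 0.57 ± 0.45 (SE; limma adjusted p 0.851). In GENCODE 29 opposite-strand genes share 14.8% of the exonic bases of IDI1 and 15% of those of HMGCS1. For FDFT1 and CYP51A1 the opposite-strand shares are 4.17% and 3.85%. The strand setting of the counting is not given in the sources used here, so such reads may be included.

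FDFT1, squalene synthase, commits farnesyl pyrophosphate to sterols (Entrez 2222, chromosome 8, 11795573 to 11839309). It was at 21.2 FPKM in the control, 23.9 in library 1 and 45.9 in library 2. Library 1 lay just above the control and library 2 was 2.16-fold (2.03 to 2.30) above it. The log2 fold change was 0.62 ± 0.46 (SE; limma adjusted p 0.831). SQLE, the oxygen-dependent epoxidase that acts next, was at 23.0 FPKM in the control, 17.9 in library 1 and 25.5 in library 2 (Entrez 6713, chromosome 8, 124998497 to 125022283). The control lay between the knockdown libraries, and the log2 fold change was -0.10 ± 0.42 (SE; limma adjusted p 0.982).

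SC5D, the desaturase that makes 7-dehydrocholesterol, was at 8.40 FPKM in the control, 6.97 in library 1 and 10.0045 in library 2 (Entrez 6309, chromosome 11, 121292453 to 121308694). The control again lay between them; the log2 fold change was -0.0063 ± 0.44 (SE; limma adjusted p 0.999), and its sign turned with median-ratio rescaling and with quantile normalization. DHCR7 reduces 7-dehydrocholesterol to cholesterol (Entrez 1717, chromosome 11, 71428193 to 71452868). It was at 31.3 FPKM in the control, 31.9 in library 1 and 49.5 in library 2. Library 1 was at 1.02 times the control (0.879 to 1.18), a difference that could not be told from counting error, and library 2 was 1.58-fold (1.39 to 1.81) above it. The log2 fold change was 0.34 ± 0.42 (SE; limma adjusted p 0.916).

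By direction, 4 of the 8 genes were above the control in both knockdown libraries (CYP51A1, FDFT1, IDI1 and DHCR7), where 31.7% of all tested genes were. That share was 36.9% with median-ratio rescaling and 36.0% with quantile normalization, and the share below the control in both, 37.6%, became 31.9% and 33.6%. With quantile normalization DHCR7 left this group, which then held 3 genes. The other 3 (HMGCS1, SQLE and SC5D) lay on opposite sides, as did 30.7% of tested genes. The median log2 fold change of the 8 was 0.17, 0.097 in library 1 and 0.44 in library 2, beside -0.048 over all tested genes.

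In all 8 genes the 95% counting interval of the ratio of library 2 to library 1 left out 1, as it did in 75.5% of tested genes. In 7 of the 8, library 2 was the higher, where 51.1% of tested genes were, and the median log2 difference of library 2 from library 1 was 0.52 for the 8 and 0.017 over all tested genes. FDFT1 had the largest ratio of library 2 to library 1, at 1.92 (1.81 to 2.03), and CYP51A1 the smallest of the 7, at 1.32 (1.20 to 1.45). HMGCS1 went the other way, at 0.424 (0.387 to 0.464). In absolute terms the median log2 difference between the libraries was 0.58 for the 8 and 0.34 for all tested genes. With 1 library on each side there is no test of this difference. The epithelial marker sums above, carried mostly by keratins, moved in the same direction.

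**Figure D2:**
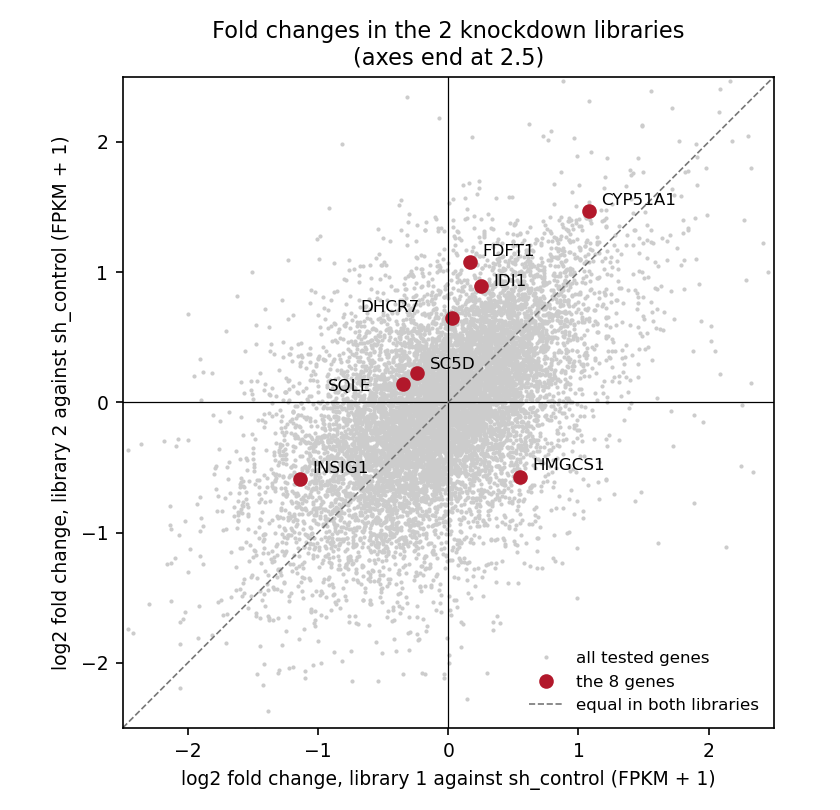
Log2 fold change of FPKM + 1 from the control in library 1 (horizontal) and library 2 (vertical) for all tested genes (grey) and the 8 genes (red); both axes share the control and end at 2.5. The 7 genes above the dashed line of equality are higher in library 2, and HMGCS1 lies far below it.

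The other enzymes of the pathway, 15 genes that remain once the described ones are set aside, were all tested. Of these, 4 were above the control in both libraries, 5 below in both and 6 on opposite sides. Over all tested genes these shares were 31.7%, 37.6% and 30.7%. limma called 0 of the 15, 0 had an unadjusted p under 0.05, and the median log2 fold change was -0.079. All 22 synthesis enzymes together, described ones included, had 8 above in both (36.4%) and 5 below in both (22.7%). Their median was -0.028, beside -0.048 over all tested genes. Library 2 was above library 1 in 9 of the 15, and in 51.1% of all tested genes. NSDHL, which acts after CYP51A1 in removing the methyl groups at C4, was at 12.01 FPKM against 17.0 and 21.96. TM7SF2, a sterol C14 reductase that acts directly on the CYP51A1 product, was at 12.2 against 23.1 and 14.7. LBR, also a sterol C14 reductase but outside the rule for named genes, went the other way. It was at 37.7 FPKM in the control, 32.7 in library 1 and 29.8 in library 2 (log2 fold change -0.27, limma adjusted p 0.931).

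LSS, which closes squalene epoxide into lanosterol, stands directly before CYP51A1. Its level was 16.6 FPKM in the control, 12.6 in library 1 and 10.3 in library 2, a log2 fold change of -0.50 (limma adjusted p 0.857). Its neighbour was thus higher in both libraries while LSS was lower in both, and neither was called. MSMO1, the C4 methyl oxidase, was a little above the control in both libraries, with log2 fold changes of 0.21 and 0.26 (mean 0.23). MVD, which makes isopentenyl pyrophosphate (-0.048), and FDPS, which makes farnesyl pyrophosphate (0.071), had mean log2 fold changes near 0. Of the 20 genes that the deposited table names under KEGG steroid biosynthesis, 19 were tested, with 7 above the control in both, 5 below in both and a median of -0.12. The vitamin D hydroxylase CYP24A1, which that pathway also holds and which makes no cholesterol, had its largest difference: 11.1 FPKM in the control against 82.2 and 32.8 (log2 fold change 2.13, limma adjusted p 0.402). The KEGG terpenoid backbone pathway, also with 19 of 20 tested, had 9 above, 4 below and a median of 0.071. NUS1 and IDI1 were among its members farthest from 0. Beside the counts of both KEGG pathways, 31.7% of all tested genes were above the control in both libraries and 37.6% below in both.

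**Figure D3:**
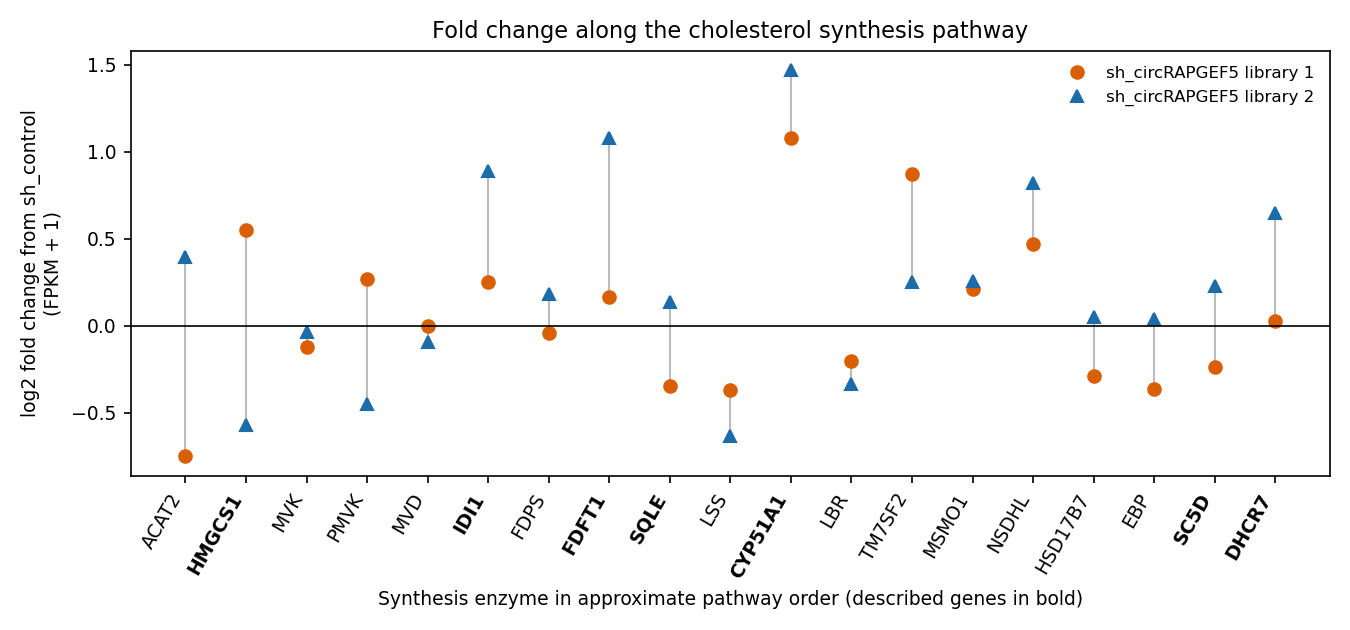
Log2 fold change of FPKM + 1 from the control for 19 of the 22 synthesis enzymes, in approximate pathway order; circles are library 1, triangles library 2, and grey lines join the libraries. CYP51A1 is the highest point of both libraries, at 1.08 and 1.47, and its neighbour LSS is below 0 in both.

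Genes that switch the pathway on or sense sterols lay on both sides of the control. Of 11 tested, 4 were above the control in both libraries, where 31.7% of tested genes were, and 4 below in both, where 37.6% were. The other 3 lay on opposite sides, with 0 of the 11 called by limma and 0 at an unadjusted p under 0.05. SREBF2, whose SREBP-2 drives the sterol genes, was at 39.5 FPKM in the control, 24.6 in library 1 and 21.2 in library 2. Both knockdown libraries were below the control, with a log2 fold change of -0.77 ± 0.40 (SE; limma adjusted p 0.75). SREBF1, whose SREBP-1 proteins lean to fatty acid genes, was at 39.1 FPKM against 37.5 and 17.4, so that library 2 alone was far below. The escort SCAP was at 24.6 FPKM against 25.7 and 22.8. MARCHF6, a ubiquitin ligase that targets squalene epoxidase, was at 26.6 against 18.6 and 19.01.

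Among uptake and lysosomal genes 9 were tested, with 4 above the control in both, 3 below in both and 0 called by limma. Over all tested genes 31.7% were above in both and 37.6% below in both. An unadjusted limma p under 0.05 was found for 2 of the 9, and for 7.07% of tested genes. One of these 2 genes was SCARB1, the HDL receptor. It was at 19.6 FPKM in the control, 36.0 in library 1 and 43.4 in library 2, a log2 fold change of 0.97 ± 0.40 (SE; limma adjusted p 0.643). LIPA, the lysosomal lipase that frees cholesterol from its esters, was at 19.8 FPKM against 17.3 and 3.90, with library 2 alone far below.

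Efflux and storage genes were few. ABCA1, the cholesterol exporter, was below the filter at 0.690 FPKM in the control, 0.372 in library 1 and 0.218 in library 2. Of 4 tested efflux and liver X receptor genes, 2 were above the control in both and 1 below in both, where 31.7% and 37.6% of tested genes were. LPCAT3 had a log2 fold change of -0.48, NR1H3 of 0.31 and NR1H2 of 0.24. Of 3 tested genes listed under esterification and storage, NCEH1, a cholesteryl ester hydrolase, was at 3.98 FPKM against 12.2 and 13.7 (log2 fold change 1.48 ± 0.42 SE, unadjusted p 0.00436, limma adjusted p 0.494). SOAT1, which esterifies cholesterol, had a log2 fold change of -0.12. ACAT1, at -0.068, is the mitochondrial acetoacetyl-CoA thiolase and does not esterify cholesterol, although the list holds it.

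Fatty acid synthesis genes, which share SREBP control with the sterol genes, were mostly on the lower side. Of 12 tested, 8 were below the control in both libraries (7 with quantile normalization), where 37.6% of tested genes were, and 2 above in both, with a median log2 fold change of -0.38 and 0 called by limma; 3 had an unadjusted p under 0.05. SCD, the desaturase that makes oleate, was at 158 FPKM in the control, 47.5 in library 1 and 79.8 in library 2, a log2 fold change of -1.34 ± 0.43 (SE; limma adjusted p 0.553). FADS2, which desaturates polyunsaturated fatty acids, was at 8.69 FPKM against 3.17 and 3.09, and ACACB, an acetyl-CoA carboxylase, at 3.15 against 1.06 and 0.957. FASN, fatty acid synthase, was at 207 FPKM against 162 and 175. ACLY, which makes cytosolic acetyl-CoA, falls outside the rule for named genes and was picked with its values known; it lay farthest to the other side, at 53.8 FPKM against 81.8 and 122 (log2 fold change 0.88, limma adjusted p 0.714).

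Side branches that spend isoprenoids on dolichol, ubiquinone and protein prenylation were mostly higher. Of 11 tested genes, 8 were above the control in both libraries, where 31.7% of tested genes were, and 2 below in both, with a median of 0.24, 0 called by limma and 1 at an unadjusted p under 0.05. That gene was NUS1, a subunit of the dolichol-making prenyltransferase, at 11.9 FPKM in the control, 21.2 in library 1 and 25.8 in library 2 (limma adjusted p 0.692). COQ2, the prenyltransferase of ubiquinone synthesis, was at 16.3 FPKM against 9.49 and 14.6, and RABGGTB, a subunit of RAB geranylgeranyl transferase, at 59.3 against 75.4 and 85.2.

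**Figure D4:**
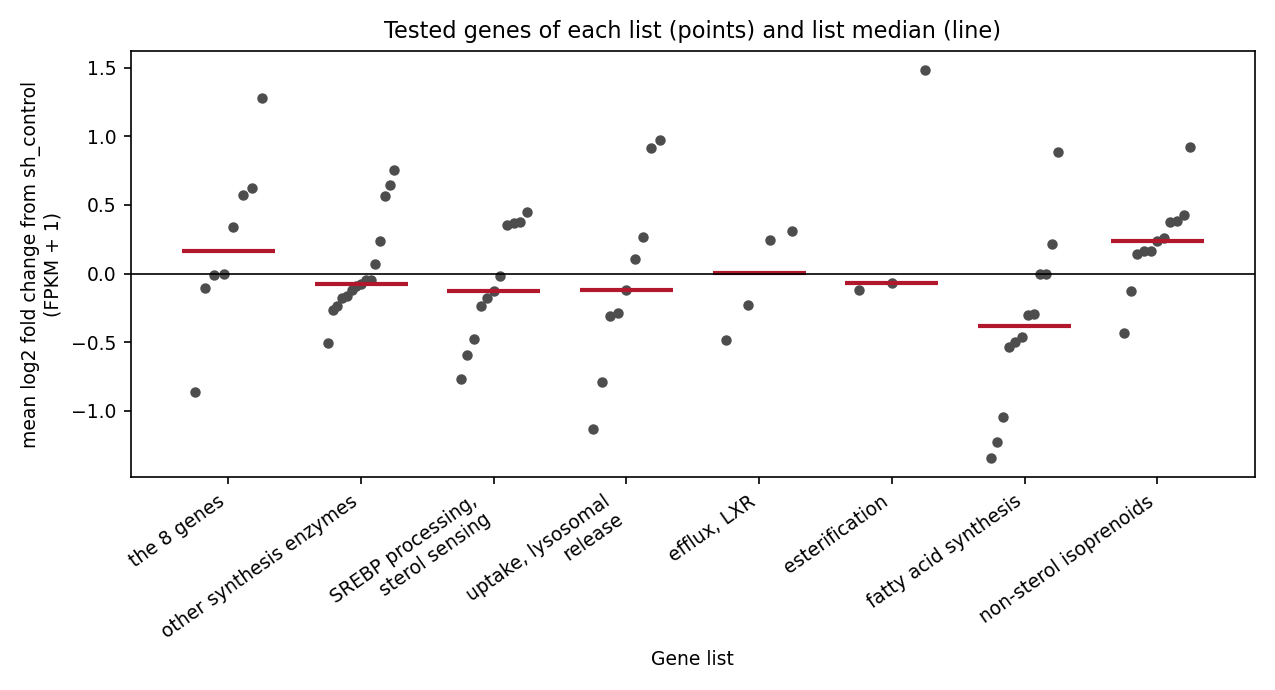
Mean log2 fold change of FPKM + 1 from the control for each tested gene (points, in ascending order within a list) of the 8 genes and of 7 related lists, with the list median (red line). The 8 genes span from INSIG1 at -0.87 to CYP51A1 at 1.28, and the fatty acid list has the lowest median, at -0.38.

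Among 5761 genes outside the lists with a mean of at least 10 FPKM, those whose pair of log2 fold changes lay nearest to CYP51A1 over the 3 libraries were PNO1 (distance 0.053), RAB5IF (0.060) and KLF5 (0.072). PNO1 had 9.78 FPKM in the control, 21.6 in library 1 and 27.8 in library 2, and KLF5 had 9.29 against 20.8 and 28.98. In all, 35 of the 5761 genes lay within a distance of 0.25.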

How the data were processed

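The authors deposited FPKM, a fragment count scaled to gene length and library depth, for 3 libraries with 1 column each. Trimmomatic, HISAT2 and GRCh38.p13 were used per the submitters' processing notes; their versions, the counter, its strand setting and the annotation were not given in the sources used here. KEGG pathway names are other annotation text that the authors deposited. The 8 genes and the gene lists were chosen with earlier results of these data known.

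Genes with a mean of at least 1 FPKM (11216) were fitted together on log2(FPKM + 1) with limma 3.58.1 in R 4.3.3, using a mean-variance trend and Benjamini-Hochberg adjustment over all of them; this scale understates changes of low genes. There is 1 residual degree of freedom, to which limma added 10.92 prior degrees, and the lone control is assumed to vary like the knockdown libraries. The step was tested on simulated data. An exact permutation of these libraries cannot reach 0.05.

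Fold intervals are exact 95% Clopper-Pearson intervals on the smallest whole reads giving the FPKM ratios (relative tolerance 1e-09, 100% of the 13769 genes above 0 in every library). True reads may be larger, so intervals may be too wide for counting error and leave out all other error.

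The text names all 8 genes, listed genes that limma called (0), the 3 tested genes of each list farthest from 0 and 15 genes fixed by name. Some genes that this rule takes are not reported here, and other listed genes appear in counts only. Gene coordinates come from GENCODE 29 (GRCh38), and promoter windows from RefSeq (GRCh38.p14). Python 3.11.15 drew the figures.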

Additional observations from a re-analysis of the deposited data

How the results depend on the processing

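None of the 8 genes was called by limma in any of the 8 alternatives that allow a test (pseudocounts of 0.1 and 5, no filter, a mean of at least 5 FPKM, median-ratio rescaling, quantile normalization, no trend, a prior of 5 degrees of freedom), and the lowest adjusted p was 0.458, for CYP51A1. Of 64 such values 59 kept their direction. The filters, the trend and the prior leave a fold change as it is, so those agreements were fixed in advance. Only the pseudocounts, median-ratio rescaling and quantile normalization could turn a direction. The mean of HMGCS1 turned to 0.013 with a pseudocount of 5, 0.071 with median-ratio rescaling and 0.031 with quantile normalization, and that of SC5D to 0.075 and 0.067 with median-ratio rescaling and quantile normalization. Both means lie next to 0. CYP51A1 ranged from 1.07 to 1.36 and INSIG1 from -0.95 to -0.63. The number of all genes called higher, 2, became 1 with a pseudocount of 5, with median-ratio rescaling and without the trend, and 0 with no filter, quantile normalization and the prior of 5. Genes below the control in both libraries, 4221, became 6369 with no filter and 2685 with a mean of at least 5 FPKM, where more or fewer genes were tested. The balance turned with scaling: 4141 genes were above and 3573 below with median-ratio rescaling, and 4037 and 3770 with quantile normalization, against 3556 and 4221. The count of 7 genes higher in library 2 than in library 1 was a comparison chosen after seeing the data. It was 7 in each of the 8 alternatives, but only median-ratio rescaling and quantile normalization could have changed it.

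With 1 knockdown library left out, a value has no test. The log2 fold change then ranged from -0.57 to 0.55 for HMGCS1, from -0.35 to 0.14 for SQLE and from -0.24 to 0.23 for SC5D, and the number of the 8 genes below the control was 2 to 3. CYP51A1 (1.08 to 1.47), FDFT1 (0.17 to 1.08), IDI1 (0.25 to 0.89), DHCR7 (0.028 to 0.65) and INSIG1 (-1.14 to -0.59) kept their direction. Each value is the fold change of the library kept. Genes on the same side of the control in both libraries therefore keep their direction by definition, which adds no support. No paired analysis was possible because there is 1 control library, whose label carries no replicate number. With 1 control and none of the 8 genes called, their differences from it cannot be separated from variation between libraries. This holds for CYP51A1 and INSIG1 as well as for the smaller differences of SQLE, SC5D and DHCR7 in library 1.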
